A study of Arabidopsis thaliana with 20 samples.

Results

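The genes described here are those whose change with leaf age depended on genotype in Arabidopsis thaliana. They were found by 1 contrast over all 20 libraries of the study: the change from 25 to 45 days after sowing (DAS) in the snrk2.4/snrk2.10 double mutant minus the same change in wild type. The contrast was tested for 14503 genes, and 465 of them were called at an adjusted p under 0.05 in edgeR's quasi-likelihood test. The libraries were made by 3' RNA-seq, in which a read near the poly(A) tail stands for a transcript, from rosette leaves of plants grown in long days. There were 5 libraries each of wild type at 25 DAS, wild type at 45 DAS, mutant at 25 DAS and mutant at 45 DAS. All 4 groups were in the Col-0 ecotype, and the labels name no alleles for the mutant. They do not say whether the 5 libraries of a group came from separate plants, so the p-values measure the spread between these libraries, which may be partly technical.

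SnRK2 kinases are plant protein kinases of osmotic stress and abscisic acid (ABA) signalling. SnRK2.4 and SnRK2.10 belong to the group that osmotic stress activates without ABA. Developmental leaf senescence is the last stage of a leaf's life, in which chloroplasts are dismantled, chlorophyll is broken down and nitrogen and other nutrients are moved to growing organs. ABA is among the hormones that promote it.

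In the sentences that follow, an age change is the log2 fold change from 25 to 45 DAS within a genotype. The interaction is the mutant's age change minus that of wild type, so a negative value means that the mutant rose less or fell more. Levels are CPM, the counts per 1000000 counts of a library after TMM scaling (trimmed mean of M-values), and group values are mean ± SD over 5 libraries. A change was lost when it was called in wild type only, weakened when it was called in both genotypes in the same direction and was smaller in the mutant, gained when it was called in the mutant only, strengthened when it was larger in the mutant, and reversed when it was called in both with opposite signs.

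The libraries held 615317 to 2343212 counts, and 3 counts in a library correspond to 1.28 to 3.97 CPM. Spread differed between the groups. The biological coefficient of variation was 10.96% for young and 30.0% for old wild-type leaves, and 13.3% and 19.2% for young and old mutant leaves. A pair of wild-type libraries at 45 DAS stood apart. Replicate 1 lay among the mutant libraries of the same age on the first principal component, and replicate 5 lay furthest from them. Both are used throughout, and the main counts are also given without them. No library matched another of its group within sampling noise.

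SNRK2.4 and SNRK2.10, the genes mutated in the mutant, were checked first. For SNRK2.4 (AT1G10940) the wild-type libraries held 37.9, 36.4, 46.2, 42.4 and 23.5 CPM at 25 DAS and 77.4, 76.5, 87.9, 75.0 and 83.2 CPM at 45 DAS. The mutant libraries held 1.66, 5.73, 8.16, 3.39 and 5.69 CPM at 25 DAS and 1.096, 1.28, 3.32, 2.37 and 5.29 CPM at 45 DAS. These came from 31 counts in all at 25 DAS and 17 at 45 DAS, and the mutant's ages overlapped. Every mutant library was below every wild-type library. SNRK2.10 (AT1G60940) was less reduced. It had 62.9 ± 11.3 CPM and 75.1 ± 5.75 CPM in wild-type leaves at 25 and 45 DAS, and 47.0 ± 6.01 CPM and 31.4 ± 4.85 CPM in mutant leaves. The genotypes overlapped at 25 DAS, where the difference was not called (-0.40, adjusted p 0.106, edgeR), and were apart at 45 DAS. Reads at the 3' end of a mutated gene can come from sequence downstream of a mutation. Both genes were themselves called by the interaction, SNRK2.4 with -2.18 (SE 0.45, adjusted p 0.00969, edgeR) and SNRK2.10 with -0.86 (SE 0.19, adjusted p 0.0156, edgeR). Both calls were lost when all libraries were thinned to the smallest total, and that of SNRK2.10 also without mutant replicate 2 at 45 DAS. The counts of SNRK2.4 may include reads of AT1G10930, which overlaps it on the same strand. None of the other 5 tested SnRK2 genes was called.

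Of the 14503 genes tested, 3.21% were called by the interaction, 1.83% with a positive sign (266 genes) and 1.37% with a negative sign (199 genes). At an unadjusted p under 0.05 there were 2507 genes. For comparison, the age change was called for 70.6% of genes in wild type and 70.0% in the mutant, and the genotype difference for 3.16% at 25 DAS and 9.93% at 45 DAS. Across all tested genes the age changes of the genotypes correlated with a Pearson's r of 0.943, a description over genes that are not independent replicates. Most leaf genes therefore changed with age in the same direction in both genotypes, and the interaction picks out departures from that shared change.

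Most departures were smaller changes in the mutant. The change was smaller in 321 of the 465 genes (69.0%), of which 84 were lost and 237 were weakened. It was larger in 114 genes (24.5%), of which 68 were gained and 46 strengthened, and it was reversed in 30. Among lost changes 50 were rises in wild type and 34 were falls, whereas among weakened changes 87 were rises and 150 were falls. For lost genes the median size of the age change was 1.48 (wild type) and 0.26 (mutant). For weakened genes these medians were 3.10 and 1.72, for gained genes 0.25 and 1.23, for strengthened genes 1.14 and 2.31, and for reversed genes 0.72 and 0.69.

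The count of calls rested on single libraries, most strongly on replicate 1 of the pair of wild-type libraries named above. Without wild-type replicate 1 at 45 DAS there were 1195 calls, 924 of them smaller in the mutant and 932 of them positive. Without replicate 5 there were 404, of which 253 were smaller. Libraries that did not stand apart also moved the count. It was 262 without mutant replicate 2 and 572 without wild-type replicate 4, both at 45 DAS. Without wild-type replicates 1 and 5 at 45 DAS together there were 924, of which 698 were smaller. Thinning every library to 615317 counts left 201 calls, 139 of them smaller in the mutant.

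**Figure D1:**
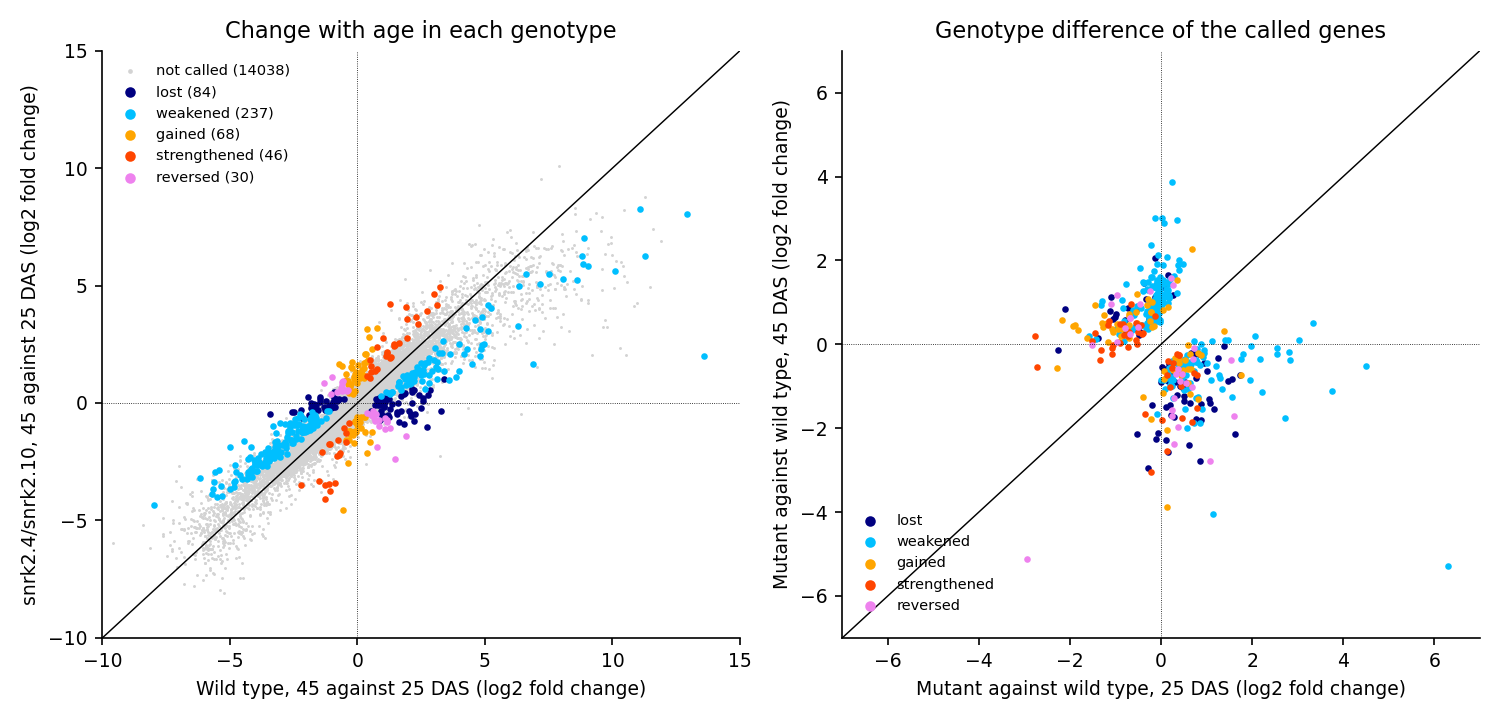
Left, log2 fold change from 25 to 45 DAS in the mutant (vertical axis) against wild type (horizontal axis), 1 point per tested gene, coloured by class with the number of genes in brackets; the diagonal marks equal change. Right, log2 fold change of mutant against wild type at 45 DAS (vertical axis) against 25 DAS (horizontal axis) for the 465 called genes. Weakened genes lie between the diagonal and the horizontal zero line on the left, lost genes lie near that zero line, and most called genes lie in the upper left or lower right quadrant on the right. For 13 called genes a group held 3 counts or fewer, so their fitted positions depend on the prior count.

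The same tilt was present over all genes that changed strongly with age. Among 6958 genes whose age change averaged over the genotypes was at least 1 log2 unit, the mutant's change was the smaller in 4324 (62.1%). This share was 64.7% among falls, with median age changes of -2.24 in wild type and -2.02 in the mutant. It was 59.3% among rises, with medians of 1.97 and 1.83. Without wild-type replicate 5 at 45 DAS the share among rises was 52.8% and the medians were 1.88 and 1.89, so the tilt of the rises rested on that library. The share among falls was 63.7% without replicate 5 and 75.7% without replicate 1.

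An interaction can come from either age. Of the 465 genes, the genotypes differed by a called difference at 45 DAS only in 294, at 25 DAS only in 104, at both ages in 21 and at neither in 46. Over all tested genes the genotype difference was called for 9.93% at 45 DAS and 3.16% at 25 DAS. More calls at 45 DAS are thus not particular to the interaction genes. The difference between genotypes changed sign between the ages in 383 (82.4%), against 45.5% of all tested genes, a feature that selection by the interaction favours. Genes with a smaller change in the mutant had their genotype call mostly at 45 DAS (231 of 321, against 47 at 25 DAS only). Genes with a larger change had it at 25 DAS only (49 of 114) about as often as at 45 DAS only (46). The difference was the larger at 45 DAS in 75.1% of weakened genes and in 34.8% of strengthened genes.

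Among changes lost in the mutant, the gene with the smallest p was G3Pp1 (AT3G47420), a putative glycerol-3-phosphate transporter known for its response to low phosphate. Its wild-type libraries held 18.9, 14.3, 10.5, 11.1 and 7.41 CPM at 25 DAS and 81.5, 100.2, 96.3, 60.9 and 100.2 CPM at 45 DAS. Its mutant libraries held 51.4, 51.6, 38.1, 30.5 and 24.0 CPM at 25 DAS and 59.2, 48.3, 54.0, 38.6 and 46.3 CPM at 45 DAS. The mutant was already above every wild-type library at 25 DAS, its own ages overlapped, and at 45 DAS it lay below every wild-type library. The age change of wild type was 2.75 (SE 0.23) against 0.36 (SE 0.20) in the mutant, an interaction of -2.40 (SE 0.30, adjusted p 0.000118, edgeR).

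LSU2 (AT5G24660), named for its response to low sulfur, had the same shape. Wild type held 28.7, 19.8, 13.0, 6.95 and 7.41 CPM at 25 DAS and 103, 99.4, 109.5, 81.2 and 79.6 CPM at 45 DAS. The mutant held 59.7, 68.7, 57.1, 47.5 and 36.6 CPM at 25 DAS and 70.2, 70.1, 48.2, 41.6 and 47.6 CPM at 45 DAS. At 25 DAS every mutant library was above every wild-type library, and at 45 DAS every one was below. The interaction was -2.48 (SE 0.36, adjusted p 0.000811, edgeR).

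GDH1 (AT5G18170), a glutamate dehydrogenase that links amino acid and carbon metabolism, showed the mirror image, a fall that was lost. Wild type held 123, 93.1, 103, 98.7 and 117 CPM at 25 DAS and 23.6, 20.5, 19.3, 34.4 and 18.4 CPM at 45 DAS. The mutant held 37.3, 30.5, 48.9, 69.2 and 55.0 CPM at 25 DAS and 36.2, 36.3, 45.7, 43.3 and 39.7 CPM at 45 DAS. The mutant was below wild type at 25 DAS and above it at 45 DAS without overlap, and its own ages overlapped. The interaction was 1.91 (SE 0.26, adjusted p 0.000198, edgeR).

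The other lost changes named by rule were 2 falls and 1 rise. AT1G56220, a gene of the dormancy- and auxin-associated family, had 473 ± 50.9 and 146 ± 33.4 CPM in wild-type leaves at 25 and 45 DAS and 236 ± 72.6 and 229 ± 35.6 CPM in mutant leaves. AT5G44260, a CCCH zinc finger gene, had 30.4 ± 8.13 and 2.93 ± 1.66 CPM in wild-type leaves and 6.87 ± 1.81 and 5.15 ± 0.760 CPM in mutant leaves. Its old wild-type level came from 16 counts in all, and it was not tested after thinning. AGP2 (AT2G22470), which encodes an arabinogalactan protein of the cell surface, had 9.02 ± 2.09 and 41.6 ± 24.0 CPM in wild-type leaves and 9.54 ± 2.62 and 7.01 ± 2.62 CPM in mutant leaves. AGP2 differed from the other lost genes named here in that the genotypes overlapped at 25 DAS and separated only at 45 DAS. Its interaction of -2.72 (SE 0.51, adjusted p 0.00552, edgeR) was that of a rise absent from the mutant.

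**Figure D2:**
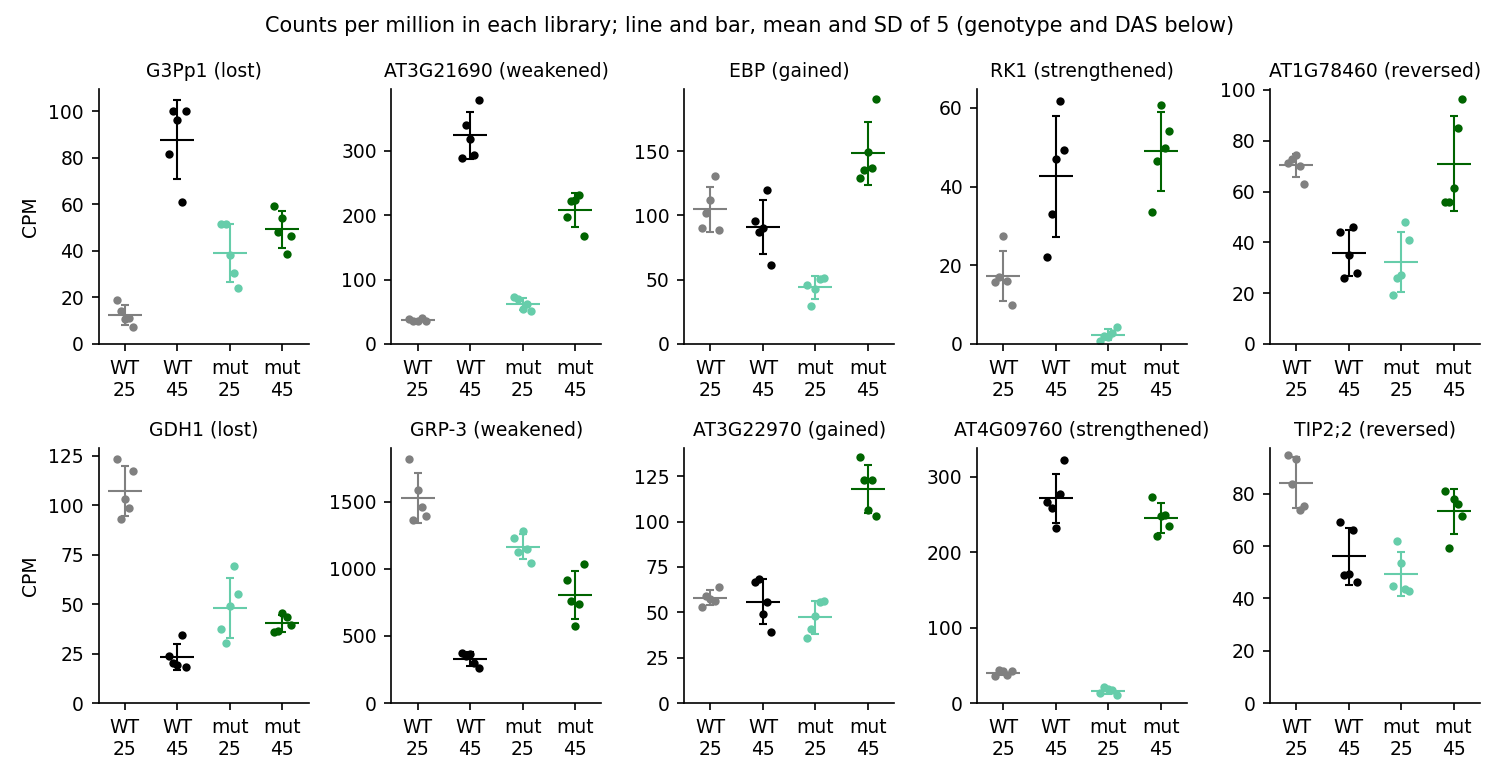
CPM of 10 genes in each library (points), by genotype (WT, wild type; mut, snrk2.4/snrk2.10) and DAS, with mean and SD of 5 libraries; each column holds 1 class. The lost genes G3Pp1 and GDH1 lie at about the same level in the mutant at both ages, and RK1 of the strengthened class starts at 2.34 ± 1.34 CPM in mutant leaves against 17.2 ± 6.42 CPM in wild-type leaves.

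Weakened changes kept their direction in the mutant with a smaller size. AT3G21690, which encodes a transporter of the MATE efflux family, held 39.2, 35.8, 35.7, 39.6 and 35.8 CPM in wild-type leaves at 25 DAS and 289, 339, 318, 294 and 379 CPM at 45 DAS. The mutant held 72.9, 69.7, 53.5, 62.4 and 50.5 CPM at 25 DAS and 197, 223, 223, 231 and 168 CPM at 45 DAS. The genotypes did not overlap at either age, with the mutant higher in young leaves and lower in old ones. Wild type changed with age by 3.12 (SE 0.13) and the mutant by 1.76 (SE 0.12) (interaction -1.36, SE 0.18, adjusted p 0.000118, edgeR).

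GRP-3 (AT2G05520), which encodes a glycine-rich cell wall protein, was an abundant transcript whose fall was weakened. Wild type held 1819, 1361, 1588, 1460.3 and 1391 CPM at 25 DAS and 377, 353, 369.5, 297 and 259 CPM at 45 DAS. The mutant held 1229, 1126, 1282, 1148 and 1042 CPM at 25 DAS and 914, 759.7, 573, 737 and 1039 CPM at 45 DAS. At 45 DAS every mutant library was above every wild-type library, and at 25 DAS every one was below. The interaction was 1.67 (SE 0.22, adjusted p 0.000118, edgeR).

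FBA5 (AT4G26530), a cytosolic fructose-bisphosphate aldolase gene, fell more steeply. Wild type held 219, 206, 196, 234 and 172 CPM at 25 DAS and 14.7, 3.94, 4.81, 6.18 and 5.89 CPM at 45 DAS. The mutant held 211, 245, 195, 178 and 162 CPM at 25 DAS and 26.9, 37.6, 33.2, 31.5 and 29.1 CPM at 45 DAS. The genotypes overlapped in young leaves and were apart in old leaves, with an interaction of 2.19 (SE 0.28, adjusted p 0.000118, edgeR). Part of these counts may belong to AT4G26520, which overlaps FBA5 on the same strand.

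SR1 (AT5G01820), a protein kinase of the family that calcium-sensing CBL proteins regulate, had 21.1 ± 1.53 and 133 ± 50.3 CPM in wild-type leaves at 25 and 45 DAS and 37.1 ± 2.34 and 55.1 ± 11.5 CPM in mutant leaves. AT3G16530, a lectin-like gene, had 193 ± 30.3 and 38.4 ± 8.05 CPM in wild-type leaves and 108 ± 25.2 and 70.1 ± 6.80 CPM in mutant leaves. AT5G06700, a gene of the trichome birefringence family of cell wall proteins, had 107 ± 6.12 and 12.5 ± 2.69 CPM in wild-type leaves and 89.0 ± 7.46 and 25.8 ± 2.09 CPM in mutant leaves. For these 3 genes the genotypes were in opposite order at the 2 ages without overlap, as for AT3G21690 and GRP-3.

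Gained changes were called in the mutant and not in wild type. EBP (AT3G16770), a transcription factor of the ethylene response factor family, held 90.1, 102, 112, 131 and 88.9 CPM in wild-type leaves at 25 DAS and 95.4, 86.8, 90.3, 120.0 and 61.1 CPM at 45 DAS. The mutant held 45.6, 29.6, 42.6, 50.9 and 51.2 CPM at 25 DAS and 129, 135, 149.5, 137 and 190.3 CPM at 45 DAS. The wild-type ages overlapped, whereas every mutant library was below the wild-type libraries of its age at 25 DAS and above them at 45 DAS. Wild type changed with age by -0.21 (SE 0.16) and the mutant by 1.73 (SE 0.17) (interaction 1.94, SE 0.23, adjusted p 0.000118, edgeR).

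AT3G22970 held 52.9, 59.0, 57.5, 56.3 and 64.2 CPM in wild-type leaves at 25 DAS and 66.8, 68.6, 49.4, 55.6 and 39.0 CPM at 45 DAS. The mutant held 35.6, 41.0, 48.0, 55.7 and 56.2 CPM at 25 DAS and 135, 123, 106, 123 and 103 CPM at 45 DAS. Only the old mutant leaves stood apart among these 4 groups, with an interaction of 1.36 (SE 0.21, adjusted p 0.000771, edgeR). The 2 remaining named gains had the same form. AT3G55240 had 39.6 ± 12.6 and 164 ± 35.2 CPM in mutant leaves at 25 and 45 DAS against 56.0 ± 4.88 and 71.5 ± 25.0 CPM in wild-type leaves. AT5G14970 had 104 ± 11.6 and 167 ± 12.9 CPM in mutant leaves against 119.9 ± 16.8 and 98.1 ± 20.3 CPM in wild-type leaves.

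Most strengthened changes named by rule were rises from a lower starting level in the mutant. RK1 (AT1G65790), a receptor kinase of the S-domain family, held 15.7, 17.1, 27.6, 16.0 and 9.88 CPM in wild-type leaves at 25 DAS and 22.0, 33.1, 46.9, 61.8 and 49.4 CPM at 45 DAS. The mutant held 0.829, 1.91, 1.81, 2.71 and 4.42 CPM at 25 DAS, from 16 counts in all 5 libraries, and 33.4, 46.6, 60.6, 49.9 and 54.2 CPM at 45 DAS. The genotypes overlapped in old leaves and were apart in young leaves. Wild type changed with age by 1.27 (SE 0.26) and the mutant by 4.23 (SE 0.35) (interaction 2.96, SE 0.47, adjusted p 0.00113, edgeR).

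AT4G09760, a protein kinase-like gene with a choline kinase domain in its annotation, held 36.6, 44.1, 42.1, 37.5 and 42.0 CPM in wild-type leaves at 25 DAS and 267, 258, 232, 277 and 322 CPM at 45 DAS. The mutant held 13.3, 22.0, 18.1, 17.65 and 11.4 CPM at 25 DAS and 274, 221, 248, 249 and 234 CPM at 45 DAS. Again only the young leaves separated the genotypes (interaction 1.16, SE 0.20, adjusted p 0.00167, edgeR). The locus overlaps AT4G09750 on the opposite strand, and whether counting used strand is not stated, so the split of reads between them is uncertain. The same holds for AT3G51870 (AT3G51880) and AT4G32340 (AT4G32330).

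AT2G32870, a TRAF-like gene, had 27.2 ± 10.1 and 228 ± 24.8 CPM in wild-type leaves at 25 and 45 DAS and 12.6 ± 4.25 and 314 ± 10.5 CPM in mutant leaves. AT4G27300, an S-domain receptor kinase gene, had 20.1 ± 2.71 and 99.1 ± 24.5 CPM in wild-type leaves and 10.7 ± 1.88 and 139 ± 9.28 CPM in mutant leaves. AT4G32340 had 27.8 ± 5.78 and 40.2 ± 4.91 CPM in wild-type leaves and 15.8 ± 2.14 and 56.6 ± 13.4 CPM in mutant leaves, a call that was lost after thinning. AT3G51870, a gene of the mitochondrial substrate carrier family, was the 1 fall in this set. Its level went from 24.5 ± 2.87 to 12.9 ± 6.83 CPM in wild-type leaves and from 39.4 ± 7.32 to 3.96 ± 2.08 CPM in mutant leaves.

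Reversed changes were moderate in size in both genotypes. AT1G78460, a gene of the SOUL haem-binding family, held 71.2, 72.7, 74.6, 70.2 and 63.0 CPM in wild-type leaves at 25 DAS and 44.0, 26.0, 34.9, 45.9 and 28.0 CPM at 45 DAS. The mutant held 19.1, 25.8, 27.2, 48.2 and 41.1 CPM at 25 DAS and 55.9, 56.0, 61.5, 84.9 and 96.5 CPM at 45 DAS. The genotypes were apart at both ages and in opposite order, and old mutant leaves held about what young wild-type leaves held. With age the level changed by -0.98 (SE 0.21) in wild type against 1.09 (SE 0.21) in the mutant (interaction 2.07, SE 0.30, adjusted p 0.000389, edgeR).

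TIP2;2 (AT4G17340), a water channel of the vacuolar membrane, had the same form at lower contrast. Wild type held 94.7, 83.8, 93.2, 73.7 and 75.3 CPM at 25 DAS and 69.3, 48.9, 49.4, 66.2 and 46.4 CPM at 45 DAS. The mutant held 44.8, 62.1, 53.5, 43.4 and 43.0 CPM at 25 DAS and 81.1, 59.4, 78.1, 76.0 and 71.4 CPM at 45 DAS. The genotypes overlapped at 45 DAS only (interaction 1.16, SE 0.20, adjusted p 0.0021, edgeR).

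PAP8 (AT2G01890), a purple acid phosphatase gene, moved the opposite way. Wild type held 5.22, 6.06, 5.67, 4.87 and 6.17 CPM at 25 DAS and 17.1, 10.3, 10.8, 2.65 and 34.6 CPM at 45 DAS. The mutant held 15.7, 7.64, 13.6, 13.6 and 8.85 CPM at 25 DAS and 2.19, 1.71, 1.66, 3.56 and 1.32 CPM at 45 DAS. Old wild-type leaves spread widely and overlapped the other groups, whereas old mutant leaves were below every young library (interaction -3.87, SE 0.64, adjusted p 0.00159, edgeR). Old mutant leaves held 17 counts of PAP8 in all, and the gene was not tested after thinning. AT1G70820, annotated as a phosphoglucomutase, had 61.4 ± 6.58 and 29.3 ± 7.55 CPM in wild-type leaves and 44.3 ± 7.66 and 57.7 ± 3.54 CPM in mutant leaves.

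Gene lists of leaf ageing were chosen with earlier results of these data known, so their shares of calls are descriptions and not tests. The list with the most calls in edgeR was that of light harvesting and the photosystems. All 46 nuclear genes of light harvesting and the photosystems were called as falling with age in both genotypes. Over all 14503 tested genes, 5002 were called as falling in wild type and 5023 in the mutant. By the interaction 17 members were called, all with a positive sign, against 1.83% of all tested genes. The median interaction of the list was 1.03, against 0.02 over all tested genes. It was positive in 44 of 46 members, against 7430 of all 14503 tested genes. The median member changed by -4.09 in wild type against -2.97 in the mutant. The median difference between genotypes was -0.03 at 25 DAS and 1.00 at 45 DAS. At 45 DAS 36 members were called higher in the mutant, against 732 of all 14503 tested genes. In bulk leaf RNA, fewer cells of a type and less RNA per cell cannot be told apart.

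PSBQ2 (AT4G05180), a subunit of the oxygen-evolving complex of photosystem II, had the smallest p of the list. Wild type held 2836, 2917, 2876, 2969.9 and 2809.8 CPM at 25 DAS and 395, 211, 185, 249.7 and 132 CPM at 45 DAS. The mutant held 2643, 2716, 2692, 2454 and 2768 CPM at 25 DAS and 669, 674, 577, 644 and 571 CPM at 45 DAS. In old leaves every mutant library was above every wild-type library, and in young leaves every one was slightly below. Wild type changed with age by -3.62 (SE 0.21) and the mutant by -2.08 (SE 0.19) (interaction 1.54, SE 0.27, adjusted p 0.0022, edgeR).

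LHCB1.5 (AT2G34420), a chlorophyll-binding antenna protein of photosystem II, also fell less in the mutant. Wild type held 11179, 10640.2, 10328, 10590.4 and 10401 CPM at 25 DAS and 1746, 749, 735, 1064 and 358 CPM at 45 DAS. The mutant held 9688, 10578, 10659, 9644 and 9533 CPM at 25 DAS and 2974, 3037, 2429.9, 2614 and 2378 CPM at 45 DAS. The genotypes overlapped in young leaves and not in old ones (interaction 1.61, SE 0.36, adjusted p 0.0149, edgeR). Its reads may be shared with near-identical LHCB1 copies and with loci on the opposite strand. PSAE1 and PSAE2, subunits of photosystem I, had interactions of 1.23 (SE 0.28) and 1.21 (SE 0.24). Both overlap genes on the opposite strand.

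The light-harvesting result moved with wild-type replicate 1 at 45 DAS, which stood apart. The mean of log2(CPM + 2) over the list was 8.99, 7.33, 7.54, 7.90 and 6.85 in wild type at 45 DAS and 8.83, 9.21, 8.73, 8.77 and 8.87 in the mutant. Replicate 1 of wild type thus lay at the mutant's level and the other 4 below it. The list had 43 calls without replicate 1, 17 without replicate 5, 43 without both and 9 after thinning. Its count also rested on single libraries of every group. Leaving out 1 library at a time gave 4 to 43 calls (median 8), with fewer than 17 by over 1.5 times in 17 of 20 cases and the fewest, 4, without mutant replicate 2 at 45 DAS. Other scalings gave 8 (DESeq2's size factors) and 10 (upper quartile), and other tools 22 (DESeq2) and 34 (limma), all with a positive sign in both tools. Without replicates 1 and 5 together the interaction was 1.74 for PSBQ2 and 1.83 for LHCB1.5.

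**Figure D3:**
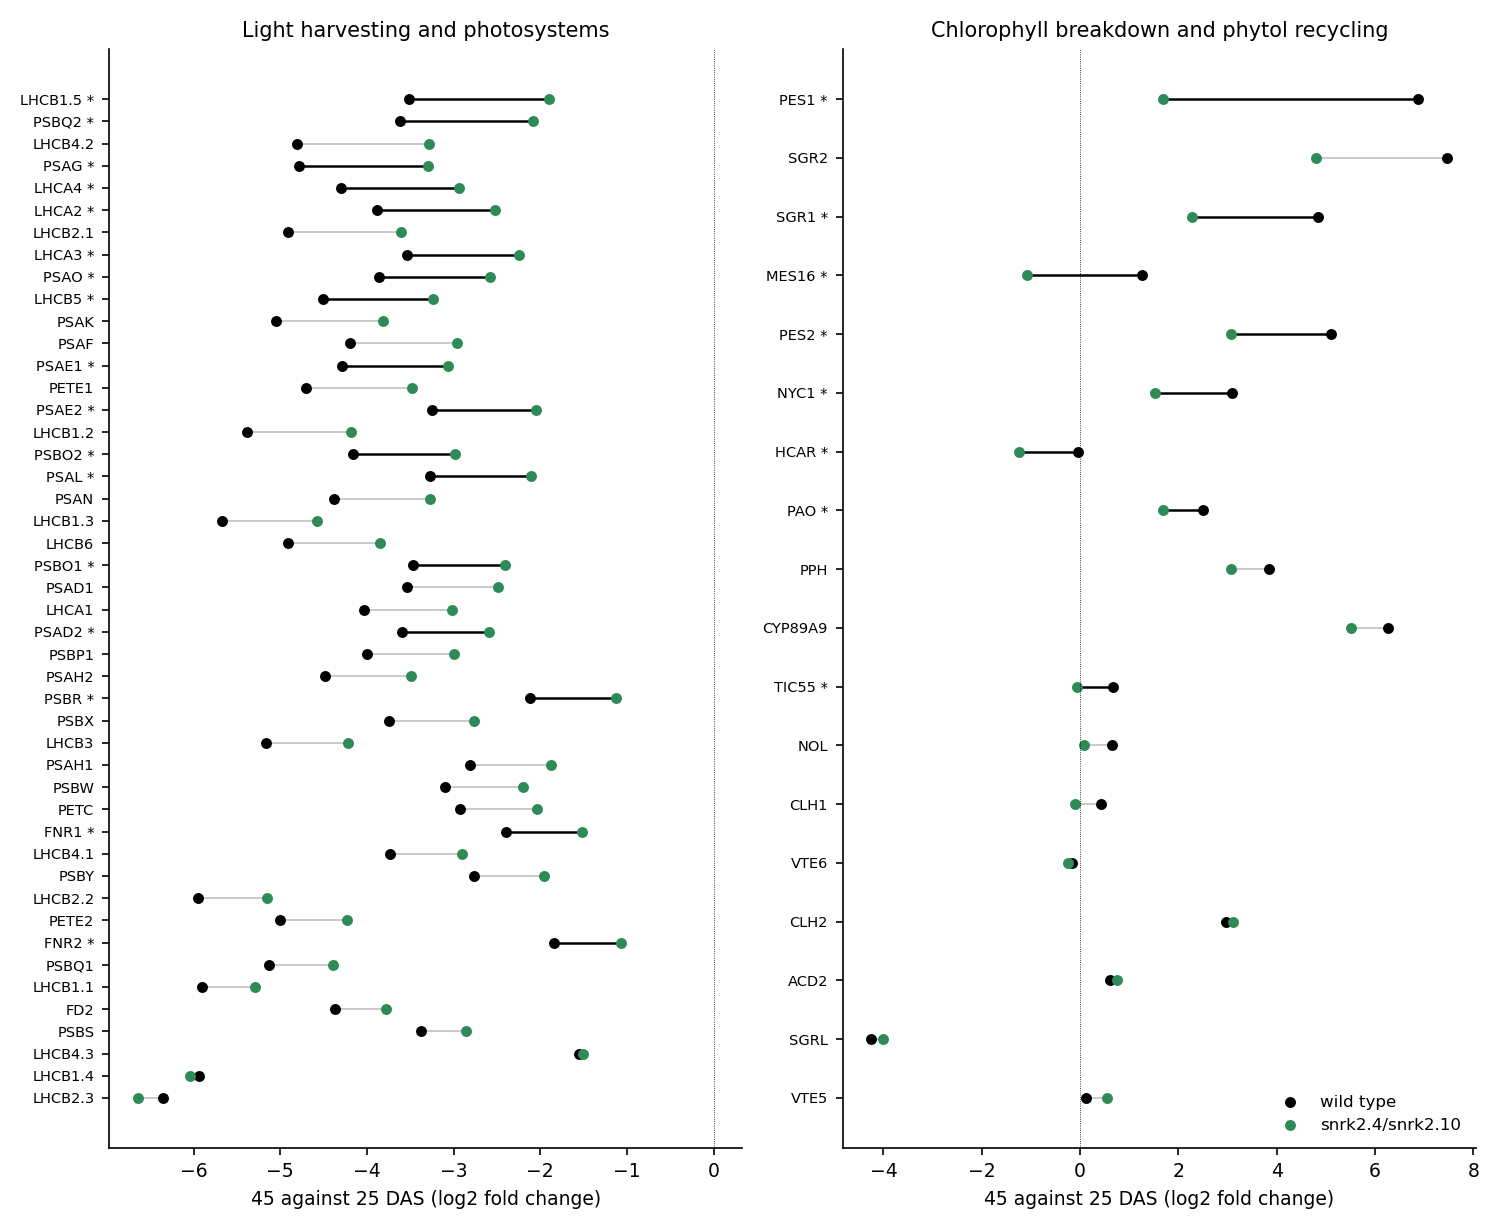
Log2 fold change from 25 to 45 DAS of each tested member in wild type (black) and mutant (green), for 46 light-harvesting and photosystem genes and 18 genes of chlorophyll breakdown and phytol recycling, sorted by interaction; an asterisk and a dark line mark a call. On the left 44 of 46 mutant points lie to the right of the wild-type point, and on the right 14 of 18 lie to the left of it. Over all 14503 tested genes the interaction was positive for 7430 and negative for 7073.

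Genes of chlorophyll breakdown and phytol recycling moved the opposite way. Of 18 members, 8 were called, all with a negative sign, against 1.37% of all tested genes, and the median interaction was -0.77. PES1 (AT1G54570), a phytyl ester synthase that stores phytol and fatty acids freed from the chloroplast during senescence, had the largest fitted interaction of the list. Wild type held 2.61, 2.204, 4.05, 2.78 and 3.70 CPM at 25 DAS, from 20 counts in all, and 280.4, 189, 185, 101 and 1024 CPM at 45 DAS. The mutant held 7.46, 3.82, 6.35, 8.14 and 6.95 CPM at 25 DAS and 27.4, 16.2, 29.1, 15.4 and 21.1 CPM at 45 DAS. In old leaves the lowest wild-type library was above the highest mutant library, and wild-type replicate 5 exceeded all others. Wild type changed with age by 6.88 (SE 0.68) and the mutant by 1.68 (SE 0.68) (interaction -5.20, SE 1.08, adjusted p 0.016, edgeR). The interaction was -4.26 without replicate 5 and -3.95 without replicates 1 and 5.

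PES2 (AT3G26840), its close relative, had 4.50 ± 1.28 and 154 ± 86.0 CPM in wild-type leaves and 7.54 ± 2.54 and 63.7 ± 7.53 CPM in mutant leaves. Its interaction of -2.04 (SE 0.53, adjusted p 0.0395, edgeR) was lost in 13 of 30 alternative settings (other tools, scalings and filters, and libraries left out), and it overlaps AT3G26850 on the opposite strand.

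MES16 (AT4G16690), a methylesterase that acts on chlorophyll breakdown products, was reversed. Wild type held 22.9, 22.0, 26.7, 22.3 and 18.5 CPM at 25 DAS and 55.4, 29.2, 28.9, 37.9 and 116 CPM at 45 DAS. The mutant held 29.0, 38.2, 29.0, 27.1 and 25.3 CPM at 25 DAS and 15.3, 11.1, 15.8, 17.2 and 9.25 CPM at 45 DAS. The gene rose without overlap in wild type and fell without overlap in the mutant (interaction -2.34, SE 0.45, adjusted p 0.00842, edgeR). Without wild-type replicates 1 and 5 at 45 DAS the interaction was -1.48.

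HCAR (AT1G04620), the reductase that converts hydroxymethyl chlorophyll a to chlorophyll a, fell in the mutant only. Wild type held 21.5, 27.0, 24.3, 31.3 and 16.0 CPM at 25 DAS and 23.6, 28.4, 20.5, 28.2 and 18.4 CPM at 45 DAS. The mutant held 29.0, 24.8, 21.8, 22.4 and 27.8 CPM at 25 DAS and 12.1, 12.0, 9.97, 10.7 and 5.29 CPM at 45 DAS. The 3 groups other than old mutant leaves overlapped (interaction -1.21, SE 0.27, adjusted p 0.016, edgeR).

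The remaining 4 called members were named after their values were seen. SGR1, the magnesium dechelatase that opens chlorophyll breakdown, had an interaction of -2.57 (SE 0.65), and NYC1, a chlorophyll b reductase, one of -1.56 (SE 0.40). PAO, which opens the chlorophyll ring, had -0.81 (SE 0.22), and TIC55, which modifies later breakdown products, had -0.75 (SE 0.20). Their adjusted p-values in edgeR lay between 0.0395 and 0.0429. PPH, the enzyme that removes phytol from pheophytin, was not called, with an interaction of -0.78 (SE 0.29) and an adjusted p of 0.147. All 8 calls of the list were lost after thinning to the smallest library. These 4 calls were lost in 17 (SGR1), 18 (NYC1), 20 (PAO) and 21 (TIC55) of 30 alternative settings. The list had 7 calls without wild-type replicate 1 at 45 DAS, 6 without replicate 5 and 6 without both. Leaving out 1 library at a time gave 3 to 8 calls (median 4), with fewer than 8 by over 1.5 times in 15 of 20 cases, among them every young library of either genotype. With no filter on low counts there were 3. DESeq2 called 9 and limma 7 members, all with a negative sign.

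**Figure D4:**
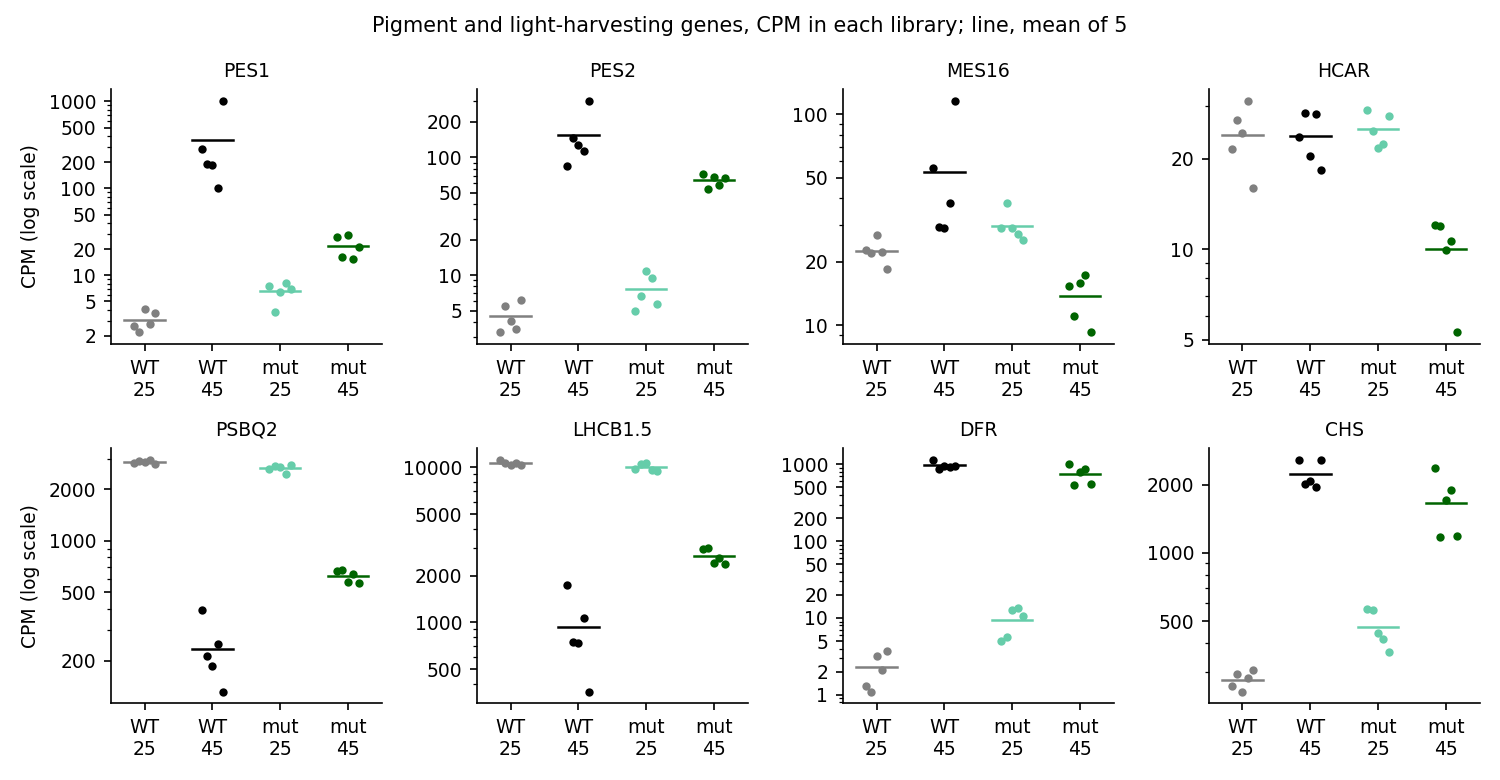
CPM on a log scale of 8 genes in each library (points), by genotype and DAS, with the group mean of 5 as a line. For PES1, PES2, MES16 and HCAR the old mutant leaves lie below the old wild-type leaves, for PSBQ2 and LHCB1.5 they lie above, and for DFR and CHS the genotypes are apart in young leaves only.

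The promoters of 4 of these genes are given because the 2 lists moved in opposite directions and ABA-response elements hold the core ACGTG. They are the 250 bases before the annotated gene start, read 5' to 3' on the gene's strand from the RefSeq TAIR10.1 assembly. Capitals mark ACGTG on either strand (CACGT is its reverse complement). The coordinates are chr4:2673244-2673493 (minus strand) for PSBQ2, chr2:14523569-14523818 (minus) for LHCB1.5, chr1:20385381-20385630 (minus) for PES1 and chr4:9393651-9393900 (minus) for MES16.
PSBQ2: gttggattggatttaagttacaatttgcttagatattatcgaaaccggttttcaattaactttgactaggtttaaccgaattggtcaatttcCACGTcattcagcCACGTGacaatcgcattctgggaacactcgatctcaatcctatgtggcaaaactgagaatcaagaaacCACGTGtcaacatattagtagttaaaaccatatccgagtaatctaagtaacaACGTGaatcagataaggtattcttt
LHCB1.5: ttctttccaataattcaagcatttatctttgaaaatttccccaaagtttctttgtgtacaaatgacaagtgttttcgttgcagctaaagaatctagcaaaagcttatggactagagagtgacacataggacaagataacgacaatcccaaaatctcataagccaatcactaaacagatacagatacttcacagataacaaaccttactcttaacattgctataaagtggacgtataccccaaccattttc
PES1: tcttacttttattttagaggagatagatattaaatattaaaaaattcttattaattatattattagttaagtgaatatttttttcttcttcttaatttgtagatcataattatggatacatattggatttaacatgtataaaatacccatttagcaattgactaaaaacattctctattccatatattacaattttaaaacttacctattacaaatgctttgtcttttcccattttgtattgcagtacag
MES16: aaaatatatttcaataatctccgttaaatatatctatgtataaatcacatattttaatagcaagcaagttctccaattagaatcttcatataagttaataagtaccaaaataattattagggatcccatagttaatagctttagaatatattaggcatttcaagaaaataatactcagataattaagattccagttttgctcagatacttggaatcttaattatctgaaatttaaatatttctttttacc

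The PSBQ2 window held 6 matches to ACGTG over both strands, and the other 3 windows held none. Such a window could be read for 9764 of the tested genes, those with no other gene within it, and 24.2% of them held ACGTG, 7.61% the G-box CACGTG, which contains ACGTG, 46.0% TTGAC and 2.83% AAAATATCT, each on either strand. ACGTG was present in 34.4% of the windows of 96 weakened falls, in 25.3% of 75 weakened rises, in 29.2% of 65 lost, 29.8% of 47 gained, 15.8% of 38 strengthened and 21.7% of 23 reversed genes. AAAATATCT, the evening element of clock-controlled genes, was present in 3.08% of lost, 2.34% of weakened, 8.51% of gained (4 windows), 2.63% of strengthened and 4.35% of reversed genes. Among called list members ACGTG was found in 4 of 9 windows of light-harvesting genes and in 0 of 5 of chlorophyll breakdown genes. These shares are descriptions, with no test.

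Other lists of the chloroplast had a positive median interaction and shares of calls near the 3.21% of all tested genes. Of 24 tested chlorophyll synthesis genes, 1 was called, CRD1, a subunit of the cyclase that forms the fifth ring of chlorophyll, with 1.09 (SE 0.31, adjusted p 0.0497, edgeR), a call lost in 22 of 30 alternative settings. CRD1 overlaps a gene on the opposite strand. Of 22 Calvin cycle genes, 1 was called, CP12-2, a small regulator of the cycle, with 0.93 (SE 0.23, adjusted p 0.0268, edgeR), lost in 4 of 30. The median interaction was 0.51 in each list. DESeq2 called 3 chlorophyll synthesis and 1 Calvin cycle genes and limma 4 and 5, all with a positive sign. Reads from the plastid genome took 6.47 ± 0.60% of counts in young and 2.22 ± 0.73% in old wild-type leaves, and 6.44 ± 0.85% and 3.05 ± 0.48% in young and old mutant leaves. The difference of differences was 0.862 percentage points (exact permutation test, two-sided, p = 0.179). A difference was thus not detected, which does not show that the share changed alike in both genotypes. Poly(A)-primed counts of plastid transcripts are not a measure of their abundance in the plastid.

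Among 28 tested senescence regulators and markers, only SAG12 (AT5G45890), a cysteine protease gene used as a marker of senescence, was called, a share of 3.57% against 3.21% of all tested genes. DESeq2 called 3 members and limma 1, all with a negative sign. In wild type it had 2 counts in the 5 young libraries together and 3008, 2611, 863, 806 and 16424 CPM at 45 DAS. In the mutant it had 16.6, 47.7, 12.7, 62.4 and 12.0 CPM at 25 DAS and 41.7, 78.2, 268, 139 and 78.0 CPM at 45 DAS. Every young mutant library was thus above the young wild-type libraries, and the old ones were below the lowest old wild-type library (adjusted p of the interaction 0.0021, edgeR). The genotype difference at 25 DAS was not called (adjusted p 0.0578, edgeR), and the mutant's own ages overlapped. No fold change is given for SAG12 because young wild-type leaves were at the counting limit.

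BFN1 (AT1G11190), a nuclease gene of senescence, missed the threshold at an adjusted p of 0.0531 (interaction -5.47, SE 1.48). In wild type at 45 DAS it held 101, 56.8, 4.81, 6.18 and 190.0 CPM, and in the mutant 0.548, 0.855, 0.831, 2.37 and 3.97 CPM, with 11 counts in all. The genotypes did not overlap in old leaves, but wild type spread over a wide range. BFN1 passed the threshold in 5 of 29 alternative settings, among them the DESeq2 test. NAC092, a NAC transcription factor that promotes senescence, had an interaction of 0.42 (SE 0.79, adjusted p 0.845), and NAC029, another such factor, one of -1.26 (SE 0.61, adjusted p 0.304). The median interaction of the list was -0.83, or -0.72 with the 9 members that had a group at 3 counts or fewer set to the level of 3 counts.

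**Figure D5:**
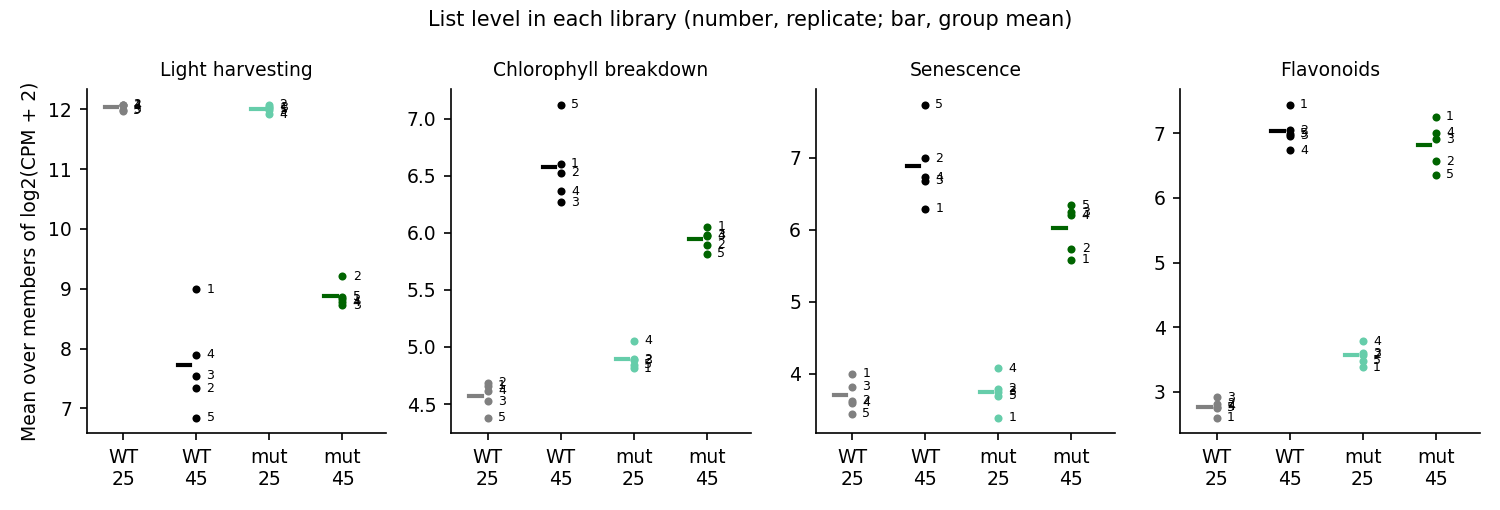
Mean over list members of log2(CPM + 2) in each library (points with replicate numbers; bar, group mean) for light harvesting, chlorophyll breakdown, senescence and flavonoid genes, by genotype and DAS. Wild-type replicates 1 and 5 at 45 DAS mark the ends of the wild-type range for light harvesting (8.99 and 6.85) and for senescence, and for flavonoids the genotypes are apart at 25 DAS and overlap at 45 DAS.

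Flavonoid and anthocyanin genes gave an interaction of another form, with the larger median difference between genotypes in young leaves. All 11 members had a negative interaction, against 7073 of all 14503 tested genes, and 3 were called (27.3%, against 1.37% of all tested genes with that sign). The median difference between genotypes was 1.58 at 25 DAS and -0.04 at 45 DAS. In the mutant 4 members were called higher at 25 DAS, against 200 of all 14503 tested genes. At 45 DAS 2 members were called lower, against 708 of all tested genes. The list level was 2.601 to 2.92 in young wild-type leaves and 3.38 to 3.78 in young mutant leaves, without overlap, and 6.74 to 7.44 and 6.36 to 7.25 in old leaves. DFR (AT5G42800), the reductase that commits flavonoids to anthocyanins, held 1.31, 1.102, 3.24, 2.09 and 3.70 CPM in wild-type leaves at 25 DAS, from 14 counts in all, and 1145, 867, 952, 928 and 965 CPM at 45 DAS. The mutant held 4.97, 5.73, 12.7, 13.6 and 10.7 CPM at 25 DAS and 1011, 536, 803, 875 and 562 CPM at 45 DAS. Both genotypes rose steeply, from a higher start in the mutant (interaction -2.53, SE 0.42, adjusted p 0.00159, edgeR, lost after thinning).

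CHS (AT5G13930), the entry enzyme of the pathway, is expressed well above the counting limit in young leaves. It had 277 ± 24.8 CPM in wild-type leaves and 471 ± 88.7 CPM in mutant leaves at 25 DAS, and 2228 ± 309.8 and 1663 ± 500.3 CPM at 45 DAS (interaction -1.19, SE 0.25, adjusted p 0.0122, edgeR). LDOX, which acts after DFR, had an interaction of -2.01 (SE 0.50, adjusted p 0.0305, edgeR), lost in 14 of 30 settings. The list's median interaction of -2.01 became -1.37 when 3 members with a group at 3 counts or fewer were set to the level of 3 counts.

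The ABA lists gave 4 calls, read against 3.21% of all tested genes. None of 11 tested genes of ABA synthesis, release and catabolism was called. An unadjusted p under 0.05 was found for 2 of them, against 2507 of all 14503 tested genes. AAO3, the oxidase of the last step of ABA synthesis, had 16.2 ± 2.88 and 46.4 ± 29.5 CPM in wild-type leaves and 13.0 ± 6.42 and 24.2 ± 4.66 CPM in mutant leaves (interaction -0.61, SE 0.50, adjusted p 0.584, edgeR). Its wild-type mean at 45 DAS held replicate 5 at 98.7 CPM and the others at 30.1 to 39.9 CPM. Among 8 ABA receptor genes, PYL5 (AT5G05440) was called (12.5%). It fell from 45.4 ± 7.20 to 8.14 ± 2.65 CPM in wild-type leaves and from 15.2 ± 4.13 to 9.62 ± 1.90 CPM in mutant leaves (interaction 1.78, SE 0.32, adjusted p 0.00273, edgeR), so the genotypes differed in young leaves and overlapped in old ones.

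Among 6 clade A protein phosphatases, which repress ABA signalling, HAB1 was called (16.7%). It rose from 14.3 ± 3.67 to 74.4 ± 17.596 CPM in wild-type leaves and from 23.1 ± 2.13 to 56.0 ± 4.84 CPM in mutant leaves (interaction -1.05, SE 0.24, adjusted p 0.0165, edgeR), a call lost without wild-type replicates 1 and 5 at 45 DAS. Of 17 ABA-responsive genes 2 were called (11.8%), RD22 with 1.41 (SE 0.34) and HB7 with -1.66 (SE 0.46), calls lost in 8 and 18 of 30 settings. None of 10 B4 Raf kinase and mRNA decapping genes, partners of these SnRK2 kinases in stress signalling, was called or had an unadjusted p under 0.05. None of 18 salicylic acid and defence genes and none of 19 jasmonate genes was called, with 4 and 0 at an unadjusted p under 0.05. Over all 14503 tested genes, 2507 had such an unadjusted p. These counts are from edgeR. DESeq2 and limma called 2 each of the salicylic acid genes, both with a positive sign, and none of the ABA synthesis, Raf and decapping or jasmonate genes.

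Genes of nutrient and sugar status were called in both directions. Of 18 tested nitrogen and nutrient remobilization genes, 4 were called (22.2%, against 3.21% of all tested genes). Beside GDH1 these were YSL3, a transporter that moves metals out of senescing leaves, with 1.04 (SE 0.27), GLN1;3, a cytosolic glutamine synthetase, with -1.15 (SE 0.26), and RD21A, a vacuolar cysteine protease, with -1.16 (SE 0.30). YSL3 had 40.9 ± 6.45 and 91.5 ± 8.52 CPM in wild-type leaves and 19.2 ± 8.79 and 90.9 ± 14.9 CPM in mutant leaves, so that its difference lay in young leaves. The YSL3 call was lost in 6 of 30 settings and that of GLN1;3 after thinning. RD21A, at 1409 ± 752 CPM in old wild-type and 719.9 ± 109 CPM in old mutant leaves, was no longer called in 16 of 30 settings.

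Of 17 sugar starvation and amino acid catabolism genes, 4 were called (23.5%). SEN1 (AT4G35770), a gene known for its rise in darkness and sugar starvation, held 94.0, 94.2, 114, 119 and 91.4 CPM in wild-type leaves at 25 DAS and 9.78, 24.5, 30.1, 11.5 and 16.9 CPM at 45 DAS. The mutant held 5.80, 15.3, 22.7, 29.9 and 31.0 CPM at 25 DAS and 15.9, 9.40, 21.6, 11.9 and 31.7 CPM at 45 DAS. Only young wild-type leaves were high, and the other 3 groups overlapped (interaction 2.12, SE 0.50, adjusted p 0.0267, edgeR, lost without mutant replicate 2 at 25 DAS). TPS10, a member of the trehalose phosphate synthase family, had 30.2 ± 0.713 and 20.5 ± 3.68 CPM in wild-type leaves and 10.2 ± 3.90 and 20.9 ± 5.77 CPM in mutant leaves (interaction 1.49, SE 0.30, adjusted p 0.00944, edgeR). BZIP53 and DIN9 were called with -0.87 (SE 0.23) and -2.04 (SE 0.57), calls lost in 13 of 30 and 19 of 29 settings. In autophagy, 1 of 26 genes was called (3.85%, near the share of all tested genes), ATG7, which activates the conjugation of ATG8, with -1.66 (SE 0.44, adjusted p 0.0374, edgeR, lost in 17 of 30 settings).

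Clock and flowering genes gave 3 calls, 2 of 18 clock genes (11.1%) and 1 of 6 tested genes of flowering and the age pathway (16.7%), against 3.21% of all tested genes. PRR7, a repressor of the morning genes, rose from 64.2 ± 9.39 to 109 ± 11.7 CPM in wild-type leaves and from 47.9 ± 2.94 to 129 ± 11.2 CPM in mutant leaves (interaction 0.66, SE 0.16, adjusted p 0.0268, edgeR, lost in 4 of 30 settings). LUX, a component of the evening complex, had 14.04 ± 2.94 and 12.8 ± 1.98 CPM in wild-type leaves and 12.4 ± 5.52 and 3.57 ± 2.12 CPM in mutant leaves (interaction -1.56, SE 0.43, adjusted p 0.0456, edgeR, lost in 21 of 30 settings), and overlaps AT3G46650 on the opposite strand. The labels give no hour of harvest, and its part in these values was not tested. SPL4, a transcription factor that promotes the floral transition, was called with 1.18 (SE 0.32, adjusted p 0.0416, edgeR, lost in 16 of 30 settings). It had 15.0 ± 5.38 and 15.6 ± 5.18 CPM in wild-type leaves and 19.6 ± 2.14 and 45.7 ± 9.43 CPM in mutant leaves. Summed over 8 flower marker genes, the libraries held 9.83 to 26.1 CPM in old mutant leaves and 7.94 to 13.995 CPM in old wild-type leaves, so the groups overlapped, with 2 of the 8 at 0 throughout. Their part in the SPL4 result was not tested.

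Markers of other leaf cell types were also read. The summed level of 10 xylem and fibre markers was 143.2 to 208.1 CPM over all young libraries and 0.0 to 6.84 CPM over all old ones. All 4 tested members were called as falling with age in both genotypes. Over all 14503 tested genes this call was made for 5002 in wild type and 5023 in the mutant. The 5 phloem markers summed to 321.8 to 451.5 CPM at 25 DAS and 661.0 to 832.1 CPM at 45 DAS. Neither list had an interaction call in edgeR. An unadjusted p under 0.05 was found for 0 xylem and 2 phloem genes, against 2507 of all 14503 tested genes. DESeq2 and limma called 1 phloem gene each and no xylem gene. The guard cell list summed to 62.4 to 70.5 CPM in wild-type leaves and 88.8 to 91.6 CPM in mutant leaves at 25 DAS, and to 47.7 to 74.9 and 54.2 to 62.3 CPM at 45 DAS. Its 1 call among 4 tested genes was KAT1, a potassium channel of guard cells, which rose from 12.3 ± 1.92 to 26.0 ± 10.2 CPM in wild-type leaves and fell from 20.0 ± 3.56 to 13.0 ± 3.04 CPM in mutant leaves (interaction -1.70, SE 0.34, adjusted p 0.00786, edgeR, lost after thinning). The 3 seed markers together held 16 counts in wild-type replicate 4 at 25 DAS, 1 count in wild-type replicate 5 at 25 DAS, 1 in wild-type replicate 1 at 45 DAS and 0 in every other library. Of 5 heat shock genes, 1 was tested and was not called by any of the 3 tools.

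Calls were spread over the genome, with 3.04% to 3.53% of tested genes called on each of the 5 nuclear chromosomes, 5 of 79 plastid genes and 0 of 11 mitochondrial genes.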

How the data were processed

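The authors deposited 1 table of raw gene counts per library. Libraries were made from oligo(dT)-primed cDNA, and STAR 2.7.8a and the TAIR10 build are named in the submitters' processing notes. The counting tool, the use of strand and of the molecular identifiers, and the alleles are not given in the sources used here. From the counts as deposited, 14503 of 37336 loci passed edgeR's expression filter by group. They were fitted in 1 quasi-likelihood model of 4 group means (edgeR 4.0.16, R 4.3.3, trimmed mean of M-values) with Benjamini-Hochberg adjustment over all tested genes at 0.05. DESeq2 1.42.0 and limma 3.58.1 were alternatives. On simulated counts for 14107 genes, 66.5% of 200 genes with an interaction of 1.5 (log2) were recovered. Of the 142 calls made on these counts 6.34% were false, a share above the threshold of 0.05. The effect of the unequal spread of the 4 real groups on these shares was not tested. They are therefore not error rates of the calls reported above.

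Members and gene lists (25 lists, 398 genes, 344 tested) were chosen with earlier results of these data known. Named genes had at least 15 counts in each group, a mean of at least 10 CPM in 1 group and the smallest p: 6 lost, 6 weakened, 4 gained, 6 strengthened and 4 reversed. Beside them 8 genes were always named, and up to 4 called members of each list, and 9 were chosen after their values were seen. Gene names, positions, overlaps and promoters are from the RefSeq annotation of TAIR10.1, and 37051 loci had an entry there. Promoters were cut from that genome. The plastid share was tested by permuting genotype labels within each age (63504 arrangements).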

Additional observations from a re-analysis of the deposited data

Results flagged for a closer look

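A difference between the genotypes in the age change is itself the test of the interaction, so every called gene named above is listed here with its interaction (log2, mutant minus wild type, adjusted p under 0.05 in edgeR). No explanation was tested for any of them.

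Among changes that were lost these were G3Pp1 (-2.40), GDH1 (1.91), AT5G44260 (2.96), LSU2 (-2.48), AT1G56220 (1.65), AGP2 (-2.72), SEN1 (2.12), ATG7 (-1.66), DIN9 (-2.04) and TIC55 (-0.75). Weakened changes named by the smallest p were AT3G21690 (-1.36), AT3G16530 (1.69), FBA5 (2.19), GRP-3 (1.67), SR1 (-2.07) and AT5G06700 (1.31). Weakened changes of chloroplast and pigment genes were PES1 (-5.20), PES2 (-2.04), SGR1 (-2.57), NYC1 (-1.56), PAO (-0.81), CRD1 (1.09), PSBQ2 (1.54), PSAE2 (1.21), LHCB1.5 (1.61), PSAE1 (1.23), CP12-2 (0.93), DFR (-2.53), CHS (-1.19) and LDOX (-2.01). The other weakened changes were PYL5 (1.78), HAB1 (-1.05), RD22 (1.41), HB7 (-1.66), GLN1;3 (-1.15), RD21A (-1.16), BZIP53 (-0.87) and SAG12, for which the adjusted p of 0.0021 is given because young wild-type leaves held 2 counts.

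Gained changes were EBP (1.94), AT3G22970 (1.36), AT3G55240 (1.72), AT5G14970 (0.98), SNRK2.10 (-0.86), HCAR (-1.21), LUX (-1.56) and SPL4 (1.18). Strengthened changes were RK1 (2.96), AT3G51870 (-2.52), AT2G32870 (1.64), AT4G09760 (1.16), AT4G27300 (1.38), AT4G32340 (1.32), PRR7 (0.66) and YSL3 (1.04). Reversed changes were AT1G78460 (2.07), AT1G70820 (1.42), PAP8 (-3.87), TIP2;2 (1.16), SNRK2.4 (-2.18), MES16 (-2.34), TPS10 (1.49), KAT1 (-1.70) and 4 genes described in the closing observations, AT3G55410 (-1.18), AT5G55070 (-0.96), HA2 (-1.81) and HY5 (-1.97).

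In 14 of 296 groups of 5 libraries, 1 library lay far from the other 4 by Dixon's 95% criterion on a log scale. Chance gives this in about 1 of 20 groups. On that scale old wild-type replicate 5 was not flagged for PES1, SAG12 or NYC1. It was nevertheless the highest library of its group for each, with 1024, 16424 and 1500 CPM. Wild type at 45 DAS gave 5 of them: replicate 5 for AT1G56220 (87.7 CPM), AT3G51870 (25.0 CPM), AAO3 (98.7 CPM) and PAO (303 CPM), and replicate 1 for AT2G32870 (186 CPM). Young mutant leaves gave 4: replicate 2 for AT5G14970 (124 CPM), AT2G32870 (20.0 CPM) and BFN1 (11.5 CPM), and replicate 1 for GLN1;3 (14.9 CPM). Young wild-type leaves gave replicate 5 for SNRK2.10 (82.7 CPM) and replicate 1 for RD22 (381 CPM) and NYC1 (91.4 CPM). Old mutant leaves gave replicate 2 for AT5G44260 (3.85 CPM) and replicate 5 for HCAR (5.29 CPM).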

How the results depend on the processing

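Of 2125 values of the 71 named genes under the alternatives, 1839 kept their direction and their side of the threshold, 279 kept the direction and lost the call, 5 gained a call and 2 changed sign. The 2 were uncalled throughout: NAC092, which was -0.18 without young wild-type replicate 1, up to 0.80 without any other single library and 1.20 after thinning, and AAO3 at 0.084 without old wild-type replicates 1 and 5, a setting chosen after seeing the data. Thinning to the smallest library, which tested 11166 genes on fewer counts, left 201 calls (133 positive, 68 negative), 139 smaller, 46 larger and 16 reversed in the mutant. Without old wild-type replicates 1 and 5 together there were 924 calls (722 positive), 698 smaller and 188 larger. DESeq2 gave 660 calls, 301 of them negative. The other scalings, filters and limma gave 399 to 554 calls. Upper-quartile scaling, which moved the median interaction of all genes to 0.08, gave 300 positive and 173 negative calls.

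Leaving out 1 library at a time gave 262 to 1195 calls, 163 to 932 positive and 88 to 263 negative, 169 to 924 smaller, 66 to 227 larger and 22 to 44 reversed. The lowest count of calls was without mutant replicate 2 and the highest without wild-type replicate 1, both at 45 DAS. For the plastid share this range was 0.578 to 1.15 percentage points.

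Equal replicate numbers are not said to mark shared plants or days. Over 30 same-numbered pairs of libraries, deviations from the group means correlated with -0.23 to 0.36 (median 0.02), and 6 pairs exceeded 0.1. Between old wild-type and old mutant leaves all 5 were positive (0.02 to 0.36, median 0.20), 3 of them over 0.1. Over all pairs with different numbers the range was -0.30 to 0.34 (median -0.01). Since not every pair exceeded 0.1, the numbers were not taken to pair the samples. Whether they mark a shared order or batch was not tested. A fit with the replicate number as a block gave 464 calls, 400 of them shared with the fit without it. Low depth limits genes near 3 counts per library.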

Other observations

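Among the 30 reversed genes, 4 were picked after their values were seen. AT3G55410 and AT5G55070 encode the E1 and E2 subunits of the mitochondrial 2-oxoglutarate dehydrogenase complex, an enzyme of the citric acid cycle, and were reversed together. AT3G55410 had 39.1 ± 4.64 and 65.4 ± 15.2 CPM in wild type at 25 and 45 DAS and 54.6 ± 6.56 and 40.6 ± 7.66 CPM in the mutant. AT5G55070 had 63.3 ± 7.93 and 97.0 ± 17.8 CPM in wild type and 82.4 ± 7.98 and 64.0 ± 6.15 CPM in the mutant. The age change was 0.73 (SE 0.16) and 0.61 (SE 0.13) in wild type and -0.45 (SE 0.16) and -0.35 (SE 0.13) in the mutant, and both interactions held in every alternative.

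HA2 (AT4G30190), a proton pump of the plasma membrane, had 144 ± 12.9 and 259 ± 149 CPM in wild type and 169.6 ± 19.0 and 87.0 ± 13.0 CPM in the mutant. Old mutant leaves were below every other group. Old wild-type leaves held 124 to 509.7 CPM, with replicate 1 lowest and replicate 5 highest. HY5 (AT5G11260), a transcription factor of light signalling, had 6.98 ± 1.18 and 15.2 ± 5.89 CPM in wild type and 8.06 ± 3.38 and 4.54 ± 0.878 CPM in the mutant, with no overlap between the genotypes in old leaves.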
